A study of Rattus norvegicus with 4 samples.

Results

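The genes described here are the 2 nuclear receptors that bind glucocorticoid hormones and 8 genes that these hormones are known to induce, measured in glomeruli of rats with Adriamycin nephropathy. The 10 genes were picked by symbol from a table of 13261 genes: the receptors Nr3c1 and Nr3c2, and the induced genes Zbtb16, Fkbp5, Tsc22d3, Sgk1, Klf9, Errfi1, Ddit4 and Cebpd. All 10 were found, and every one had at least 32 reads in each sample. They were chosen with their values in these samples known, above all the wide spread of Zbtb16 and the like order of Fkbp5. Their levels and orders are therefore given as a description, with no test.

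Polyadenylated RNA was sequenced from glomeruli of 4 samples that form 1 group, labelled ADR: male Wistar rats of about 150 to 175 g at the start, injected intravenously with Adriamycin (doxorubicin), an anthracycline that injures podocytes and causes nephrotic syndrome in rats. Glomeruli were isolated by sieving on day 11 or 21; the labels do not say which day applied to which sample, nor the hour of harvest, so day and replicate cannot be told apart. Each sample is taken here as 1 rat, which the labels do not state, and replicates 1 to 4 are named in the order of their listing. The title number of replicate 1 lies apart from those of the others, which are consecutive; the labels do not say whether it marks another cohort, so a cohort and replicate 1 cannot be told apart. The 4 libraries held 13566962 to 16207027 reads in the listed genes, and 1 read was worth 0.0617 to 0.0737 CPM (reads scaled to the same total in each library). Untreated rats were not analysed here, so no value shows a response to the drug.

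Glucocorticoids enter cells and bind the glucocorticoid receptor, the product of Nr3c1, which waits in the cytoplasm in a complex with heat shock proteins. The occupied receptor moves to the nucleus and binds DNA at glucocorticoid response elements, from which it raises transcription of genes such as Fkbp5 and Tsc22d3, or lowers that of inflammatory genes. The mineralocorticoid receptor, the product of Nr3c2, recognises the same elements and binds both aldosterone and corticosterone, the main glucocorticoid of rats. Corticosterone itself varies with the hour of the day and with stress. Glucocorticoids are a standard treatment of nephrotic syndrome, and podocytes carry the glucocorticoid receptor.

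The set held 2 kinds of gene by spread between replicates. Zbtb16, Fkbp5 and Cebpd differed by at least 1 on the log2 scale between the highest and the lowest replicate; 9.05% of all genes did. The other 7 members ranged over 0.24 to 0.50.

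Zbtb16 (ENSRNOG00000029980) encodes PLZF, a zinc finger transcription repressor that glucocorticoids and progestins induce strongly. Its level was 9.51 CPM in replicate 1, 100.3 CPM in replicate 2, 31.2 CPM in replicate 3 and 2.10 CPM in replicate 4. From highest to lowest the order was thus replicates 2, 3, 1 and 4, and the exact Poisson 95% intervals of the 4 values were all separate. The value in replicate 4 rested on 32 reads, with an interval of 1.44 to 2.96 CPM, and that in replicate 2 on 1625 reads. Replicate 2 was 47.8-fold above replicate 4, with a 95% interval of 33.7 to 70.1 that covers counting error only. The mean was 35.8 ± 44.7 CPM (SD, n = 4), and the SD of the log2 values was 2.38 where counting error alone gives 0.06. The range of 5.56 on the log2 scale was the second largest of all 13261 genes. It fell to 3.87 without replicate 2 and to 3.39 without replicate 4, so both ends of the order carried it.

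Fkbp5 (ENSRNOG00000022523) encodes FKBP51, a co-chaperone that binds the receptor complex and lowers its affinity for hormone, closing a short feedback loop. It stood at 77.8, 204.8, 96.9 and 57.1 CPM in replicates 1 to 4. This is the order of Zbtb16, with all 4 counting intervals separate, and replicate 2 stood far above the rest. The mean was 109 ± 65.8 CPM (SD, n = 4), and replicate 2 was 3.59-fold above replicate 4 (95% interval 3.33 to 3.87, counting error only). The range of 1.84 on the log2 scale fell to 0.76 without replicate 2. The 3 other replicates still followed Zbtb16.

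**Figure D1:**
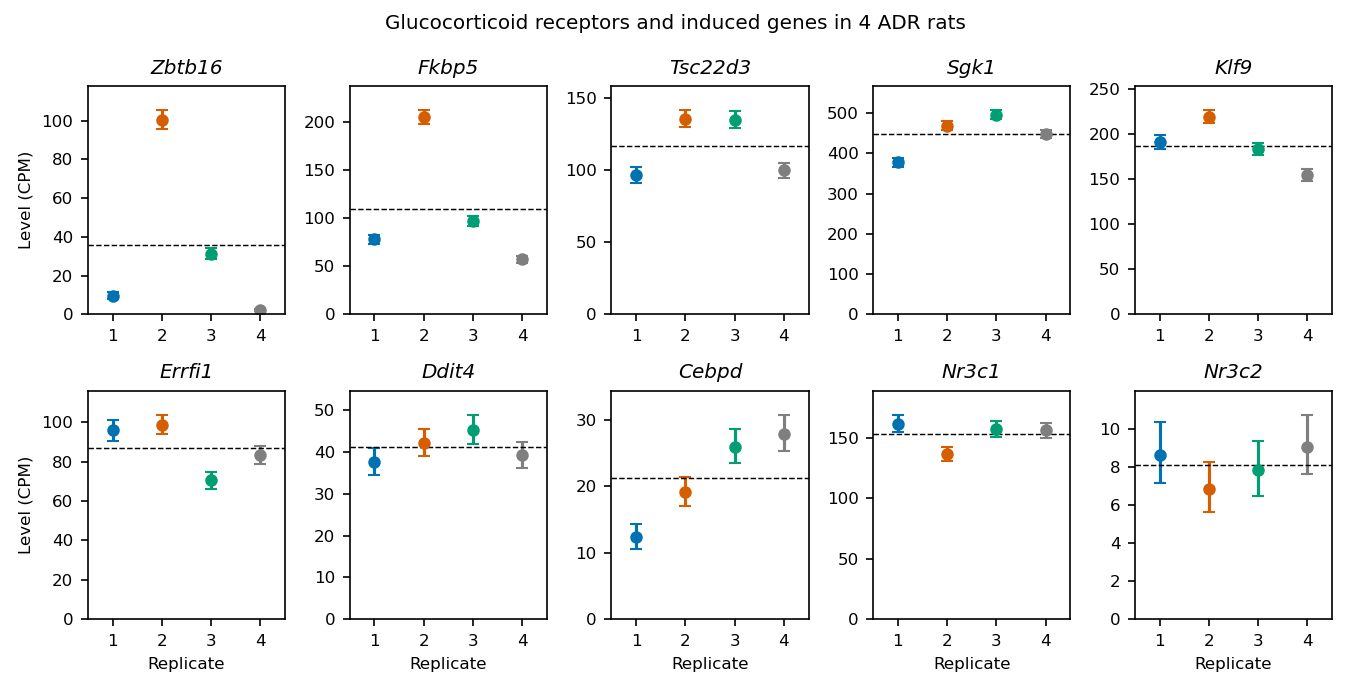
Level of each of the 10 genes in CPM (linear vertical axis from 0, scaled to each gene) in replicates 1 to 4, with exact Poisson 95% intervals for counting error as bars and the mean over 4 replicates as a dashed line. Zbtb16 runs from 2.10 CPM in replicate 4 to 100.3 CPM in replicate 2 and Fkbp5 has the same order, while Nr3c1 lies between 137 and 162 CPM.

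Tsc22d3 (ENSRNOG00000056135) encodes GILZ, a leucine zipper protein that mediates anti-inflammatory actions of glucocorticoids. Its level was 96.3, 135 and 135 CPM in replicates 1 to 3 and 99.6 CPM in replicate 4. Replicates 2 and 3 were high and replicates 1 and 4 low. Within each of these pairs the counting intervals overlapped, so its written order of 2, 3, 4 and 1 was resolved only between the pairs. The highest was 1.41-fold above the lowest (95% interval 1.31 to 1.51), and the mean was 117 ± 21.4 CPM (SD, n = 4).

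Klf9 (ENSRNOG00000014215) encodes a Krüppel-like transcription factor that both corticosteroid receptors induce. Replicates 1 to 4 had 191, 219, 183 and 155 CPM. Replicate 2 was again highest and replicate 4 lowest, and replicates 1 and 3, in the middle, had overlapping intervals. The mean was 187 ± 26.5 CPM (SD, n = 4). The range of 0.50 on the log2 scale fell to 0.26 without replicate 4 and to 0.31 without replicate 2.

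Sgk1 (ENSRNOG00000011815) encodes a kinase that keeps sodium channels at the cell surface and answers to both receptors. It had 377 CPM in replicate 1, 469 CPM in replicate 2, 495 CPM in replicate 3 and 448 CPM in replicate 4. Replicate 1 was lowest and replicate 3 highest, so Sgk1 departed from Zbtb16 at both ends. Its mean was 447 ± 50.6 CPM (SD, n = 4), and its range fell from 0.39 to 0.14 on the log2 scale without replicate 1.

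Ddit4 (ENSRNOG00000057078) encodes REDD1, an inhibitor of mTORC1 that stress and glucocorticoids induce. Its levels of 37.7, 42.3, 45.3 and 39.2 CPM had the same order as those of Sgk1, with replicate 3 highest and replicate 1 lowest. Of its 6 pairs of replicates, only replicates 1 and 3 had separate counting intervals. Its mean was 41.1 ± 3.40 CPM (SD, n = 4). Its range of 0.27 on the log2 scale was 0.17 without replicate 3.

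Errfi1 (ENSRNOG00000058186) encodes MIG6, a feedback inhibitor of the EGF receptor. It had 95.9, 98.7, 70.5 and 83.4 CPM in replicates 1 to 4. Replicate 3 was lowest and its interval was separate from all others, whereas the intervals of replicates 1 and 2 overlapped. The mean was 87.1 ± 12.9 CPM (SD, n = 4). Without replicate 3 the range fell from 0.48 to 0.24 on the log2 scale.

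Cebpd (ENSRNOG00000050869) encodes a bZIP transcription factor that glucocorticoids and inflammatory cytokines both induce. It had 12.3 CPM in replicate 1, 19.1 CPM in replicate 2, 26.0 CPM in replicate 3 and 27.9 CPM in replicate 4. Cebpd thus ran against Zbtb16 at the low end, since replicate 4, where Zbtb16 was lowest, held its highest value. The mean was 21.3 ± 7.11 CPM (SD, n = 4). The highest was 2.27-fold above the lowest (95% interval 1.89 to 2.73), and the range of 1.18 on the log2 scale fell to 0.55 without replicate 1.

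Of the receptor genes, Nr3c1 had a range below the median of all genes, 0.41, and Nr3c2 one close to it. Nr3c1 (ENSRNOG00000014096), which encodes the glucocorticoid receptor, had 162, 137, 157 and 156 CPM in replicates 1 to 4, a mean of 153 ± 11.2 CPM (SD, n = 4). Replicate 2, where Zbtb16 and Fkbp5 were highest, held its lowest value, and the other 3 replicates had overlapping intervals. Without replicate 2 its range fell from 0.24 to 0.05 on the log2 scale. Nr3c2 (ENSRNOG00000034007), which encodes the mineralocorticoid receptor, had 8.62, 6.85, 7.82 and 9.05 CPM, from 111 to 138 reads and with a mean of 8.09 ± 0.97 CPM (SD, n = 4). All of its intervals overlapped, so its order, the exact reverse of that of Zbtb16, was not resolved at this depth. Its log2 SD was 0.18 where counting error alone gives 0.13, and its range of 0.40 was 0.21 without replicate 2. Levels in CPM depend on transcript length and are not compared between genes.

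The orders of the 4 replicates were then compared gene by gene. Of the 9 other members, 1 shared the full order of Zbtb16, namely Fkbp5; over all genes 2.82% did, or 4.41% with mitochondrial genes left out of the total, where Fkbp5 was again the 1 member. Counted over the 6 pairs of replicates, Fkbp5 differed in the direction of Zbtb16 in 6, Tsc22d3 and Klf9 in 5, Sgk1, Ddit4 and Errfi1 in 4, Cebpd and Nr3c1 in 2 and Nr3c2 in 0. The median over all genes was 3. The full order was shared by 3 members without replicate 1 (Fkbp5, Tsc22d3 and Klf9), by 3 without replicate 3 (Fkbp5, Klf9 and Errfi1), by 2 without replicate 4 (Fkbp5 and Tsc22d3) and by Fkbp5 alone without replicate 2. The share of all genes with the order of the remaining 3 replicates was then 14.5%, 10.3%, 17.5% and 11.8%.

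A count that leaves out pairs within counting error was added after the values were seen. Pairs with separate intervals numbered 6 for Fkbp5, 5 for Klf9 and 4 for Tsc22d3, and all of these went in the direction of Zbtb16. For Sgk1 and Errfi1, 3 of 5 such pairs did, for Cebpd 2 of 5 and for Ddit4 1 of 1. For Nr3c1, 0 of 3 did, and Nr3c2 had no such pair. Thus 3 of the 9 other members had at least 4 separate pairs that all followed Zbtb16, while 2.47% of all genes met that condition. At least 4 separate pairs in any direction were found in 6 of the 9 and in 25.2% of all genes. Fkbp5, 1 of the 3, was chosen with its order known, and nothing is read from these shares.

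**Figure D2:**
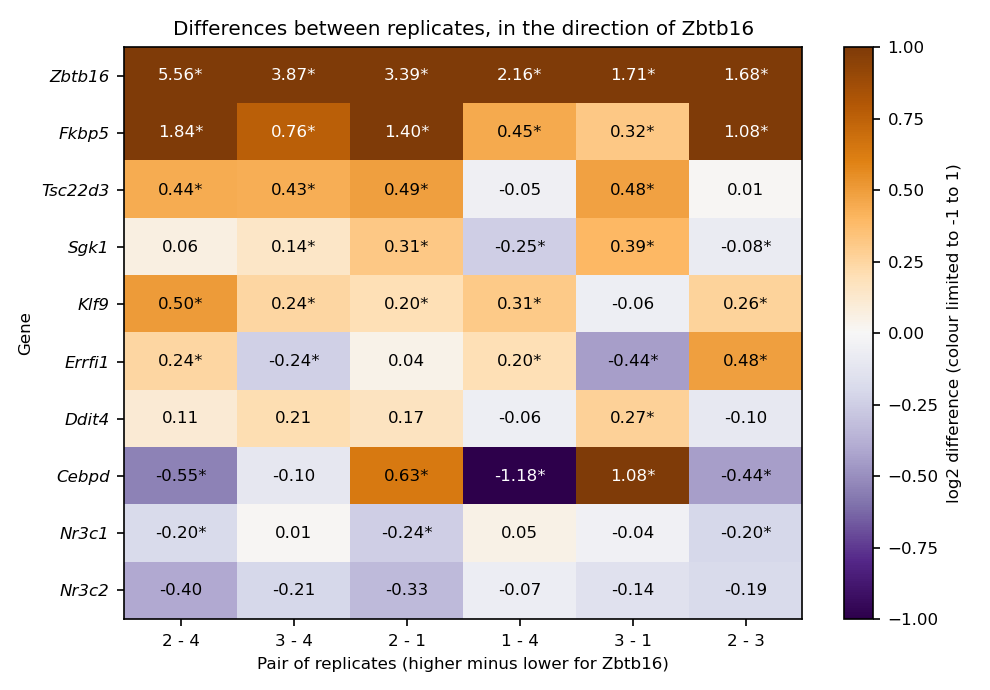
Log2 difference for each gene (rows) in each pair of replicates (columns), signed so that Zbtb16 is positive; colour is limited to 1 in size, and an asterisk marks pairs whose Poisson 95% intervals are separate. Fkbp5 is positive in all 6 columns, Klf9 and Tsc22d3 are negative only in a column without an asterisk, and Cebpd is lowest in the column of replicates 1 and 4, at -1.18.

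All 8 induced members were higher in replicate 2 than in replicate 1, against 49.2% of all genes, though for Errfi1 and Ddit4 the intervals of these replicates overlapped. In 5 of the 8, replicates 2 and 3 both stood above replicates 1 and 4 (Zbtb16, Fkbp5, Tsc22d3, Sgk1 and Ddit4), against 23.5% of all genes. Replicate 2 was the highest in 5 of 8, against 21.3% of all genes, and replicate 4 the lowest in 3 of 8, against 13.9%. Replicate 1 was the lowest in the 4 members Tsc22d3, Sgk1, Ddit4 and Cebpd, against 35% of all genes. Both receptors were lowest in replicate 2, against 31.5% of all genes. These shares include the genes whose spread led to the choice of the set, and nothing is read from them.

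**Figure D3:**
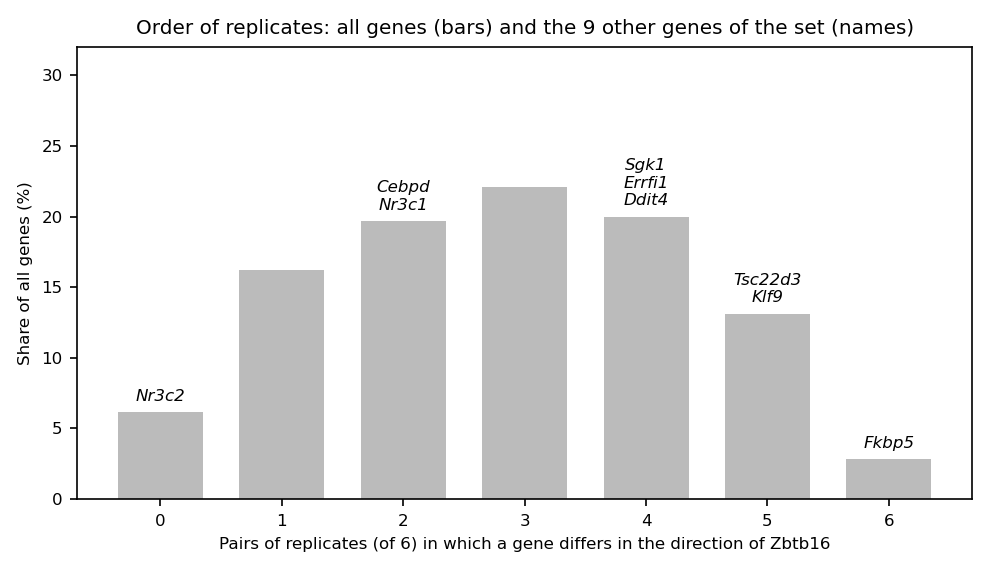
Bars give the share of all 13261 genes (vertical axis, percent) by the number of the 6 pairs of replicates in which a gene differs in the direction of Zbtb16 (horizontal axis); names place the 9 other members. Fkbp5 stands alone at 6, where 2.82% of all genes lie, and Nr3c2 at 0, where 6.15% lie.

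The genes nearest to Zbtb16 and Fkbp5 in pattern were taken from 12588 genes with a mean of at least 50 reads, members left out, by the root-mean-square (RMS) difference of the 4 centred log2 values. This measure counts the size of the spread as well as the order. By it no gene came close to Zbtb16, whose range was the second largest of all genes, although 2.82% of all genes had its order. The nearest was Polr2i, a subunit of RNA polymerase II, at an RMS difference of 1.03, with 5.75, 11.7, 10.8 and 1.51 CPM in replicates 1 to 4. The next 4 were Rn5-8s and 3 further listed copies of 5.8S ribosomal RNA, at 1.36 to 1.44. Such near-identical copies may share reads, which was not tested, and ribosomal RNA is meant to be removed by poly(A) selection. Rn5-8s had 6.63, 39.8, 25.0 and 10.4 CPM, so its levels were highest in replicates 2 and 3 too, but lowest in replicate 1. Fkbp5 itself lay at an RMS difference of 1.43 from Zbtb16.

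Fkbp5, with a smaller range, had closer neighbours by this measure. Scarna2, a small Cajal body RNA, was nearest at 0.06, with 3.32, 7.90, 3.78 and 2.36 CPM, or 36 to 128 reads. Map3k6, a stress-activated kinase gene that was also on the list of other induced genes, followed at 0.20, with 12.4, 34.1, 19.7 and 12.6 CPM. Then came Prodh1, for proline dehydrogenase, Cyp24a1, the vitamin D 24-hydroxylase of renal tubules, and Ly6al, at 0.24 to 0.25. Cyp24a1 had 22.7, 64.5, 41.0 and 23.9 CPM. Like Zbtb16, all 5 were highest in replicate 2 and second highest in replicate 3. Of these, Scarna2 and Prodh1 shared the full order of Zbtb16, though for both the counting intervals of replicates 1 and 4 overlapped.

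**Figure D4:**
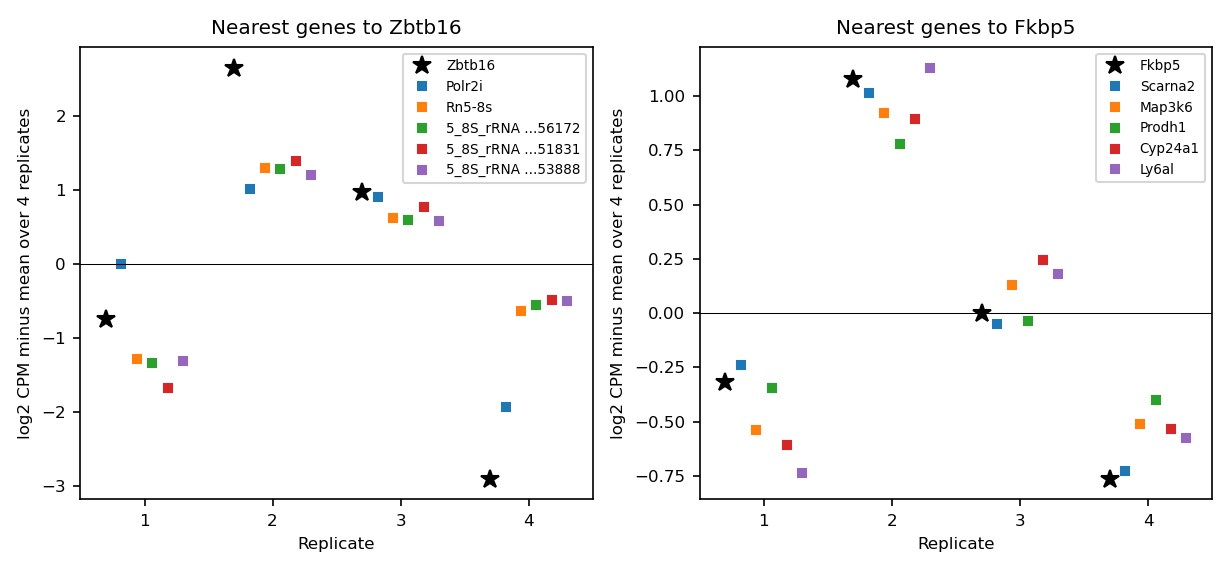
Log2 CPM minus the mean over 4 replicates (vertical axis) in replicates 1 to 4 for Zbtb16 (left) and Fkbp5 (right), drawn as stars, and the 5 nearest genes to each, drawn as squares; the ribosomal copies carry the last digits of their identifiers. For Zbtb16, whose nearest gene is at an RMS difference of 1.03, the squares lie nearer to 0 than the star in replicates 2, 3 and 4, while those of the ribosomal copies lie below it in replicate 1; for Fkbp5, whose nearest gene is at 0.06, squares lie close to the star.

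Promoter windows were searched for the glucocorticoid response element for the members, the list of other induced genes and the genes nearest to Zbtb16 and Fkbp5 in pattern. RefSeq windows (build GRCr8, 250 bases before to 50 after a gene's start) were matched by symbol for 7 of the 10 members, in 12 windows, and for 2 of the nearest genes, Map3k6 and Polr2i; Zbtb16, Cebpd and Nr3c2 were not searched. The motifs, each searched on both strands, were the palindrome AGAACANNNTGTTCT, its best conserved positions GNACANNNTGTNC, and the core ACANNNTGT; each holds the next, so matches overlap. They occur in 0.0149%, 0.439% and 6.86% of all 33469 windows. The full palindrome was in none of the member windows, and the second motif was in that of Map3k6, 181 bases before the start, and not in those of the 7 members searched. The Polr2i window held none of the 3 motifs. Of 28 genes on the list of other induced genes with a window, Map3k6 and Trim63 were the 2 that held it. The core was in 1 of the 12 member windows (8.33%), of Tsc22d3, 183 bases before that start. It was also in 4 of 29 windows of the other induced genes (13.8%), those of Lcn2, Map3k6, Nfil3 and Trim63. A match describes letters and not a bound site, and glucocorticoid response elements often lie far outside such a window. The windows are shown with matches in capitals; the Fkbp5 window holds none, and the other two Tsc22d3 windows, not shown, hold none either.
Fkbp5 promoter, GRCr8 chr20:6543506-6543805, minus strand: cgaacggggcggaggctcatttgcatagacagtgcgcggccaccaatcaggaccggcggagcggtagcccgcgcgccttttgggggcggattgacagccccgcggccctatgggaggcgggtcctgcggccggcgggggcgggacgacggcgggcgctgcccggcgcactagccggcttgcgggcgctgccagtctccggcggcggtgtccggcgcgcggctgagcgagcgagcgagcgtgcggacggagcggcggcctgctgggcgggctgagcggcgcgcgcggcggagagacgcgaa
Map3k6 promoter, GRCr8 chr5:150723995-150724294, plus strand: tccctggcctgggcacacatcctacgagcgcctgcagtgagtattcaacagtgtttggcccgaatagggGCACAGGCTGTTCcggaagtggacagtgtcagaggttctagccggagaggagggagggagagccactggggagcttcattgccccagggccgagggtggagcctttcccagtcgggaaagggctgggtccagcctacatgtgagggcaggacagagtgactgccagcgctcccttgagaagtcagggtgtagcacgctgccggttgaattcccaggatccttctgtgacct
Tsc22d3 promoter, GRCr8 chrX:109065381-109065680, minus strand: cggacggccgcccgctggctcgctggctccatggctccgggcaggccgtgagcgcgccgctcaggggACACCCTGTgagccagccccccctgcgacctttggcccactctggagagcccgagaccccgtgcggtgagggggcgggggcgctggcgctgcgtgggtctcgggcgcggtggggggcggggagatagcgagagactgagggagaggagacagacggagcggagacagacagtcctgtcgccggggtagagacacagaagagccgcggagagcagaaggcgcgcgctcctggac

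Other parts of the pathway were followed in lists, all chosen with earlier results of these data known. Over all genes, 69.5% varied beyond counting error (chi-square test on reads, adjusted p under 0.05) and 0 varied beyond limma's abundance trend, with 725 (5.47%) at an unadjusted p under 0.05. The limma test had little power here, with an estimated prior of only 3.79 degrees of freedom. Mmp9, with an 8.94-fold range, reached an unadjusted p of 0.00069 and an adjusted p of 0.912 by that test. The 0 therefore does not show that no gene varied more than others of like abundance. The median range over all genes was 0.41 on the log2 scale. With 1 group, a call says that replicates differ and gives no direction.

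The receptor complex was represented by 18 chaperones and coregulators, all measured. Their median range was 0.24, 14 passed the counting-error test and 0 limma's (0 also unadjusted). Of the 18, 3 chaperone genes (Hsp90ab1, Stip1 and Bag1) had the full order of Zbtb16 with small differences, against 2.82% of all genes. That share was 4.41% with mitochondrial genes left out of the total. The 3 were not recounted under that or any other scaling. Hsp90ab1, which encodes the chaperone that holds the receptor ready for hormone, had 1349, 1556, 1466 and 1322 CPM, and Stip1, which hands clients from HSP70 to HSP90, 105, 119, 108 and 100.2 CPM. For both genes the counting intervals of replicates 1 and 4 overlapped, and for Stip1 those of replicates 1 and 3 did too, so neither full order was resolved. Bag1 did not pass the counting-error test. The widest ranges were those of Hsp90aa1, at 0.52, with 335 CPM in replicate 2 and 234 CPM in replicate 1, of Ncoa3, at 0.48, and of Crebbp, at 0.43. The corepressor gene Nrip1 had the smallest range, at 0.12. Replicate 4 was the lowest in 11 of the 18, against 13.9% of all genes.

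Of 6 genes that set how much hormone reaches the receptor, 4 were measured and 2 passed the counting-error test. Hsd11b1, the enzyme that regenerates active corticosterone, had 118, 114, 62.7 and 91.9 CPM and was lowest in replicate 3. H6pd, which supplies its cofactor, was also lowest in replicate 3, at 32.3 CPM, and highest in replicate 1, at 48.4 CPM. The 8 proximal tubule markers were likewise all lowest in replicate 3, summing to 2661 CPM there and 5527 CPM in replicate 1; their part in the values of Hsd11b1 and H6pd was not tested. Srd5a1, a steroid 5-alpha reductase, had the order of Zbtb16 at 3.54 to 4.75 CPM without passing that test. Hsd11b2, which inactivates corticosterone in aldosterone target cells, had the smallest range, 0.19, at 40.0, 45.2, 45.5 and 45.6 CPM.

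Among 33 other genes known to be induced by glucocorticoids, 30 were measured, 25 passed the counting-error test and 0 limma's (11 at an unadjusted p under 0.05). Their median range was 0.84, and they went in the direction of Zbtb16 in a median of 3 of 6 pairs, the median of all genes. The widest were the metallothionein gene Mt1, at 6.41, 40.2, 27.2 and 19.8 CPM, Angptl4, at 6.19, 22.6, 7.36 and 9.71 CPM, and Mt2A, at 62.1, 226, 125 and 126 CPM. All 3 were highest in replicate 2 and lowest in replicate 1, and the similar metallothionein genes may share reads. Replicate 2 was highest in 12 of the 30, against 21.3% of all genes, and replicate 1 lowest in 14, against 35%. Only Fbxo32, a muscle atrophy ubiquitin ligase gene, had the full order of Zbtb16, at 17.1 to 17.6 CPM, well within counting error. Cdkn1a, a cell cycle inhibitor, had the smallest range, at 182 to 186 CPM.

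Of the inflammatory genes that glucocorticoids are known to repress, 8 of 15 were measured and all 8 passed the counting-error test (0 passed limma's, 6 at an unadjusted p under 0.05). None had the order of Zbtb16. Sele, the endothelial adhesion molecule E-selectin, had 4.20, 8.39, 16.3 and 45.3 CPM. Mmp9, a matrix protease, had 366, 40.9, 172 and 146 CPM, and Il1b had 3.24, 4.81, 12.8 and 9.51 CPM. Csf1, with the smallest range at 0.70, had the exact reverse of the order of Zbtb16, at 190.4, 132, 146 and 215 CPM. That reverse order was found in 6.15% of all genes. Irs2 and Gadd45b of the other induced genes and the mesangial markers Itga8 and Gata3, named here after their values were seen, had it too. Replicate 2 was lowest in 4 of the 8, against 31.5% of all genes, and replicate 1 in the other 4, against 35%. Replicate 4 was highest in 4, against 21.4%.

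Of 12 genes of aldosterone action in the distal nephron, 11 were measured and 7 passed the counting-error test. The kinase gene Wnk4 had the widest range, 0.96, with 7.44 CPM in replicate 1 and 14.6 CPM in replicate 2. The sodium pump genes Fxyd2 and Atp1b1 followed, both highest in replicate 1 and lowest in replicate 3. All 8 proximal tubule markers were lowest in replicate 3 too, and their part in these values was not tested. Slc12a3, the thiazide-sensitive sodium chloride cotransporter, had the order of Zbtb16, at 62.9, 73.1, 68.4 and 62.7 CPM. The counting intervals of its replicates 1 and 4 overlapped, so its low end was not resolved. Wnk1 had the smallest range, at 0.11.

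The clock list was included because Per genes and corticosterone share a daily rhythm. All 15 genes were measured and 14 passed the counting-error test. Per2 had the full order of Zbtb16, at 37.2, 54.9, 48.5 and 37.0 CPM, though the counting intervals of replicates 1 and 4 overlapped. Per3, Cry1 and Cry2, named after their values were seen, were likewise higher in replicates 2 and 3 than in replicates 1 and 4; Cry2 had 51.2, 65.0, 74.2 and 50.6 CPM. These are 4 of the 15 clock genes, a share near the 23.5% of all genes with replicates 2 and 3 on top. Per1, a direct glucocorticoid target on the list of other induced genes, was not of this kind, at 114, 88.2, 80.9 and 94.2 CPM. Bhlhe41, Hlf and Ciart had the widest ranges and were all highest in replicate 1 and lowest in replicate 4, and Nr1d2 had the smallest, at 127 to 132 CPM. Replicate 4 was lowest in 10 of the 15, against 13.9% of all genes.

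Cell type markers differed between the same replicates. The 8 podocyte markers all had the order of replicates 1, 4, 3 and 2, with a summed level of 9751, 5500, 7265 and 8759 CPM in replicates 1 to 4, so they were lowest where Zbtb16 and Fkbp5 were highest. The 8 proximal tubule markers were all lowest in replicate 3, with sums of 5527, 3993, 2661 and 4421 CPM, so tubular RNA was present in the sieved glomeruli. The 6 measured of 7 endothelial markers summed to 4427, 4893, 5758 and 4820 CPM and the 5 immune ones to 943, 1210, 1167 and 1104 CPM; of the latter, Cd74, at 777 CPM, and Cd68 were highest in replicate 2, whereas Ptprc and Cd3e were highest in replicate 3 and Lyz2 in replicate 4. The 5 mesangial markers summed to 1716, 1736, 1831 and 2141 CPM; 4 of them were lowest in replicate 2, but Des was highest there, at 1117 CPM against 701 CPM in replicate 1. The 7 distal nephron markers summed to 649, 495, 598 and 564 CPM; Umod had 429 CPM in replicate 1 and 236 CPM in replicate 2, while 5 of the 7 were higher in replicate 2 than in replicate 1, such as Aqp2, at 59.4 against 24.1 CPM. No measured marker was at 0 reads in any sample, but neither was any other listed gene, the lowest count of all being 2 reads. The 13 mitochondrial coding genes took 7.46%, 12.5%, 9.34% and 7.56% of reads, also highest in replicates 2 and 3. The part of these differences in the order of Zbtb16, Fkbp5 and the other members was not tested, and in bulk tissue fewer cells of a type and less RNA per cell cannot be told apart.

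**Figure D5:**
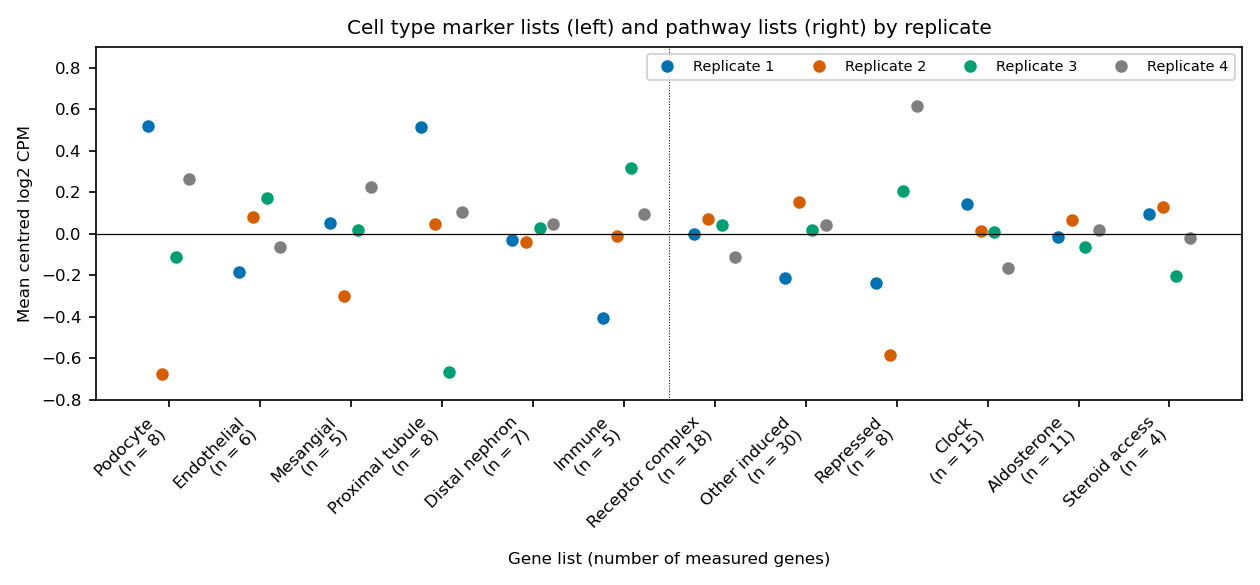
Mean of the centred log2 CPM over the measured genes of each list (vertical axis; number of genes in brackets) in replicates 1 to 4, for cell type markers left of the dotted line and pathway lists right of it. The podocyte list is lowest in replicate 2, at -0.67, the proximal tubule list in replicate 3, at -0.67, and the list of repressed genes spans from -0.59 in replicate 2 to 0.62 in replicate 4.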

How the data were processed

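The authors deposited 1 table of log2 values for 13265 rat genes; HISAT2, featureCounts, Subread, limma and the build Rnor_6.0 are named in the submitters' processing notes, and the strand setting, annotation release and gene filter are not given in the sources used here. In each column of the deposited log2 values, 2 to the power of the value was a whole number of reads plus 0.5 times a constant for 100% of values (tolerance 0.001 reads), so reads and CPM were recovered. Of the rows, 4 with displaced cells were left out. Columns were matched to samples by title.

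The members and lists were chosen with earlier results of these data known. Members were described by CPM with exact Poisson 95% intervals, which cover counting error only, since no molecular identifiers are stated. For other genes, spread was tested over all genes against counting error (chi-square, 3 degrees of freedom) and against limma's abundance trend on log2(CPM + 1) (limma 3.58.1, R 4.3.3), with Benjamini-Hochberg adjustment at 0.05; p-values measure the spread between these samples, which may be technical. Named from each list were the 3 genes with the widest range, the narrowest, and those in the order of Zbtb16; from the whole table, the 5 nearest to Zbtb16 and to Fkbp5. Alternatives were other scalings, filters, pseudocounts and leaving out each replicate. Tests were checked on simulated data: limma called 100% of 100 genes changed 4-fold in 1 replicate and 14% of 100 changed 2-fold, with a coefficient of variation of 10.0% for every simulated gene; real genes need not share one value, so these shares do not carry over to them. Python 3.11.15, NumPy 2.4.6 and SciPy 1.17.1 were used.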

Additional observations from a re-analysis of the deposited data

Results flagged for a closer look

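Of 74 genes named or described, 2 had 1 replicate set apart from the other 3 by the ratio of gap to range at Dixon's 95% critical value, where chance gives about 1 in 20 genes, or 3.7. Hsd11b2, which inactivates corticosterone, was set apart by replicate 1 (ratio 0.939), with 40.0 CPM there and 45.2 to 45.6 CPM in the others; its spread did not pass the counting-error test (adjusted p = 0.0879, chi-square test on reads over all genes). Bhlhe41, a clock repressor gene, was set apart by replicate 1 as well (ratio 0.943), with 10.8 CPM there and 3.87 to 4.10 CPM in the others. None of the 10 glucocorticoid receptor and induced genes was set apart in this way.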

How the results depend on the processing

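The number of other members in the full order of Zbtb16 was 1 as deposited and under all 3 other scalings (trimmed mean, median of ratios, and totals without mitochondrial genes). It ran from 1 to 3 on leaving out each replicate in turn, where only 3 replicates have to agree, and was 3 when only pairs with separate intervals were counted and at least 4 such pairs were required, a setting added after the data were seen. The share of all genes in that order, 2.82%, was 4.41% with mitochondrial genes out of the total and ran from 10.3% to 17.5% over the fits without a replicate. The number of genes beyond counting error ran from 7326 to 8678 over those fits, against 9222, and limma called 0 genes in all of its alternatives. Of 36 recomputed pair counts 2 changed, both for Nr3c1, which followed Zbtb16 in 1 pair and not 2 with either set of factors. Of 80 recomputed ranges 7 moved by more than the SD, all on leaving out a replicate. Scaling shifted a replicate by at most 0.05 (log2). Depth limits Nr3c2 and Ddit4, whose orders lay largely within counting error. No paired analysis was possible because there is 1 group.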
